A study of Mus musculus with 19 samples.

Results

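The comparison set medial cortex of E14.5 mouse embryos carrying GFAP::Cre; SmoM2 against medial cortex of control embryos, by RNA sequencing (E, embryonic day). It used 9 of the 19 libraries of the series, 5 control (title numbers 2 to 6) and 4 mutant (title numbers 1 to 4). A gene was taken in when it reached 1 TPM (a level scaled by gene length and to a fixed total per library) in at least 4 of these 9 libraries. That rule took in 13123 of the 47643 gene symbols in the deposited table, and 22448 symbols lay above 0 in at least 1 medial library. The controls are wildtype in the series' design text and carry no named allele, so both transgene components differ between the groups. Cre is driven by the GFAP promoter, so SmoM2 is present only in cells in which that promoter has been active and in their descendants, and how many cells had recombined was not measured. The tissue field reads medial cortex, while the extraction text speaks of medial or lateral pieces. The labels do not say that the libraries of a group came from separate embryos, so each p-value is read against library-to-library variation that could be technical in part. The filter touched the comparison itself: 23 genes passed only through the 4 mutant libraries and 67 only through control libraries, 187 passed with exactly 4 libraries and 208 with 3 were left out.

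SmoM2 is a form of Smoothened that signals without ligand. In the normal pathway a secreted Hedgehog protein binds its receptor Patched, Patched stops restraining Smoothened, and Smoothened acts through the primary cilium to turn the GLI proteins from repressors into activators of transcription. In embryonic cortex the pathway is known for acting on radial glia, the stem cells that line the ventricle, and on the intermediate progenitors they give rise to. The medial cortex holds the future hippocampus and, at its edge, the cortical hem, a strip of tissue that secretes Wnt and BMP proteins and gives rise to Cajal-Retzius neurons. The series' title names cyclin-dependent kinase 6, outer radial glia (progenitors that leave the ventricular surface) and folding of the neocortex, which is the question the comparison bears on.

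The libraries correlated at r = 0.975 to 0.992 within the controls, 0.977 to 0.986 within the mutants and 0.961 to 0.981 between the groups, across genes on log2(TPM + 1). Between 17357 and 18567 genes lay above 0 per library; the files hold no counts, so the depth is unknown. Control library 5 stood apart from the other controls on the first component of a principal component analysis (43.3% of the variance), at -4.43 against -20.3 to -25.6, while the mutants lay at 11.5 to 32.3. Xist and Ddx3y marked control libraries 2, 3 and 4 as female and control libraries 5 and 6 and all 4 mutant libraries as male, so sex was not balanced between genotypes. Markers of the cortical hem varied between libraries of both genotypes, as described with the medial genes below. TPM adds up to the same total in each library, and the median change of all genes was -0.11 on the log2 scale; after rescaling each library by its median ratio to the others, which ignores the few very abundant genes, it was -0.01. In bulk tissue, fewer cells of a type and less RNA per cell cannot be told apart, and this holds for each gene described here.

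In the mutants 4898 genes differed at an adjusted p under 0.05 (limma, Benjamini-Hochberg over all 13123 genes), 37.3% of those tested; such genes are said to be called, to have risen or to have fallen. Of these, 1176 were higher (8.96%) and 3722 lower (28.4%). The split with median-ratio rescaling was 2087 higher (15.9%) and 1921 lower (14.6%), with quantile normalization 1896 and 1924, and with the histone genes left out and the rest rescaled 1619 and 2348. All 1176 genes called higher kept that call under median-ratio rescaling, 1921 of the 3722 called lower kept theirs, and 0 changed direction. Each list below is therefore given with its counts after median-ratio rescaling. At least 2-fold changes were called for 83 genes upward (0.632%) and 124 downward (0.945%). The libraries of the 2 groups did not overlap for 1022 genes with the mutants higher (7.79%) and 3040 with the mutants lower (23.2%), 31% in all. In the 6 male libraries alone, 2 control and 4 mutant, 606 genes were higher and 1502 lower. Alternative fits are given beside a gene where they ended or made its call, all of them or, where there are many, their number and the single libraries concerned; some of these fits took as a block the number in the title or in the description that control and mutant libraries share.

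**Figure D1:**
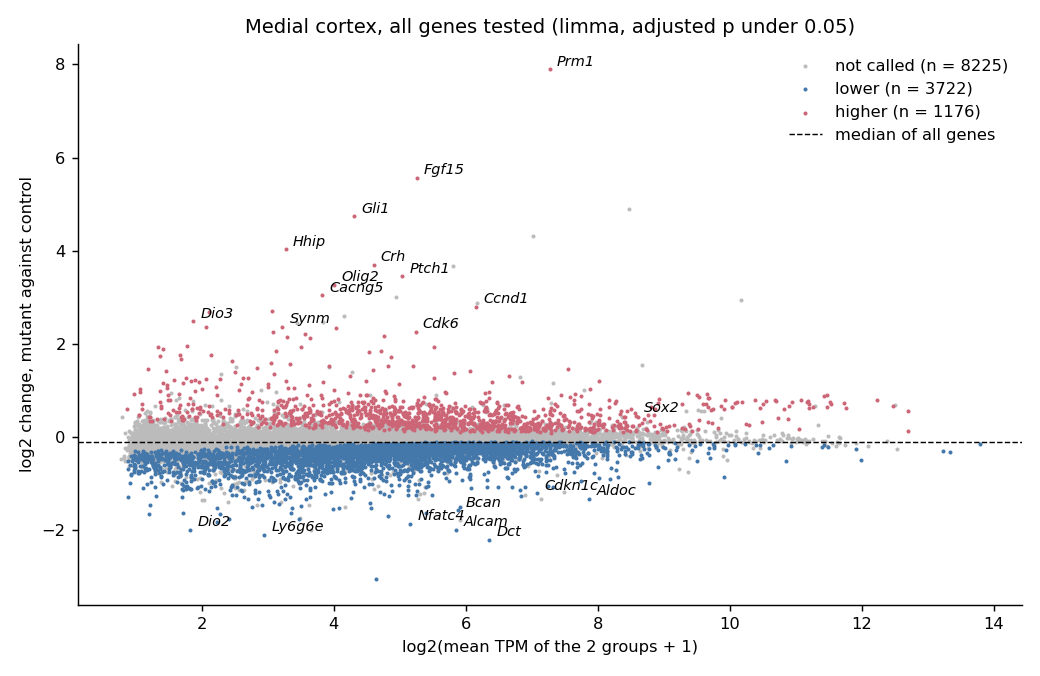
Change of each of the 13123 genes tested in medial cortex (vertical axis, log2 change of TPM + 1, mutant against control) against its mean level (horizontal axis, log2 scale). The 1176 genes called higher are few but include changes above 2 on the log2 scale (Prm1, Fgf15, Gli1, Hhip), the 3722 called lower mostly lie between the dashed median of all genes (-0.11) and -1.

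The response genes of the Hedgehog pathway rose in every mutant library. Gli1, the GLI factor whose own transcription the pathway switches on (chromosome 10, 127329882 to 127341974, GRCm38), was at 0.2, 0.558, 0.336, 0.454 and 0.441 TPM in control libraries 2 to 6. In mutant libraries 1 to 4 it was at 24.3, 40.2, 48.1 and 36.3 TPM. Each control was under 1 TPM and each mutant above 20 TPM, a log2 change of 4.74 ± 0.17 (standard error of the fit here and below, adjusted p = 4.86e-07). Ptch1, the gene of the Patched receptor (chromosome 13, 63508328 to 63573598), read 4.47, 4.37, 4, 4.51 and 5.16 TPM in the controls and 52.2, 68.9, 63.2 and 52.7 TPM in the mutants. Both groups were tight, and the rise was 3.45 ± 0.10 (adjusted p = 6.55e-08). Hhip, which encodes a membrane protein that binds and sequesters the ligands (chromosome 8, 79965851 to 80058006), was between 0.0194 and 0.122 TPM in the controls and between 9.56 and 28 TPM in the mutants. The change was 4.03 ± 0.23 (adjusted p = 1.03e-05), with the lowest mutant far above the highest control.

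The ligand side of the pathway was nearly silent in both genotypes. Shh, the ligand gene best known in the forebrain, lay between 0 and 0.175 TPM over the 9 libraries, and Ihh and Dhh, the other ligand genes, between 0.0401 and 0.378 TPM, all below the filter. Of the 4 genes of ligand processing and release that passed the filter, 2 fell and 0 rose (2 and 0 after median-ratio rescaling). These were Scube3, whose secreted product helps ligands leave the cell surface, at 7.91 ± 0.772 TPM in controls (mean ± SD here and below for TPM, n = 5) and 4 ± 0.685 TPM in mutants (n = 4) (-0.84 ± 0.11, adjusted p = 0.000408), and its relative Scube1 (-0.65 ± 0.17, adjusted p = 0.0152). Scube1 lost its call in the 6 male libraries (adjusted p = 0.0671), with quantile normalization (0.0907) and with the title number as a block (0.101).

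Among the 8 receptor genes tested, 4 rose and 2 fell (4 and 2 after rescaling). Smo itself (chromosome 6, 29735503 to 29761365) stood at 134, 134, 107, 119 and 117 TPM in the controls and 171, 158, 183 and 167 TPM in the mutants. The groups did not overlap, and the change was 0.47 ± 0.07 (adjusted p = 0.001); a value per gene does not separate transcripts of SmoM2 from those of the native gene. Cdon, a co-receptor that helps present the ligand (chromosome 9, 35421128 to 35507652), fell from 178 to 212 TPM in the controls to 117 to 130 TPM in the mutants (-0.66 ± 0.05, adjusted p = 3.92e-05). Gpr161, a ciliary receptor known as a brake on the pathway, fell by 0.45 ± 0.07 (adjusted p = 0.000775). The co-receptor genes Boc (0.13 ± 0.10, adjusted p = 0.301; 0.0258 without mutant library 1 and 0.0123 with the title number as a block) and Gas1 (-0.03 ± 0.06, adjusted p = 0.709) did not pass.

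Of the 14 genes that carry the signal from Smoothened to the nucleus, 4 rose and 2 fell (4 and 1 after rescaling), with a median change of -0.04. Beside Gli1 these were Gli2, the main activator of the pathway, and Evc (0.43 ± 0.13, adjusted p = 0.0296) and Evc2 (0.22 ± 0.07, adjusted p = 0.029), which encode partners at the base of the cilium. Evc lost its call in 8 of 24 alternatives, with adjusted p up to 0.205 in the male libraries, among them the fits without control library 4 (0.067) or 6 (0.0688) or mutant library 3 (0.0719) or 4 (0.0688). Evc2 lost its call in 10, up to 0.197 in the male libraries, among them the fits without control library 2 (0.0648), 4 (0.062) or 6 (0.0507) or mutant library 3 (0.0735) or 4 (0.0523). Gli2 (chromosome 1, 118834132 to 119053619) was at 4.59, 4.05, 4.46, 5.22 and 4.81 TPM in the controls and 4.8, 7.41, 7.48 and 7.76 TPM in the mutants. Mutant library 1 fell inside the control range and the other 3 lay above it. The change of 0.47 ± 0.13 (adjusted p = 0.0181) lost its call without mutant library 2 (0.0513), 3 (0.0506) or 4 (0.0531), with sex as a covariate (0.139) and in the male libraries (0.22). Gli3, which encodes mainly a repressor, did not pass: it was at 25.8 to 34.5 TPM in the controls and 20.9 to 28.8 TPM in the mutants (-0.14 ± 0.11, adjusted p = 0.34). Stk36, a kinase gene of the pathway, fell by 0.45 ± 0.07 (adjusted p = 0.00114), while Sufu (0.05 ± 0.08, adjusted p = 0.665) and Kif7 (-0.05 ± 0.07, adjusted p = 0.584), which encode proteins that hold the GLI factors in check, did not pass.

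**Figure D2:**
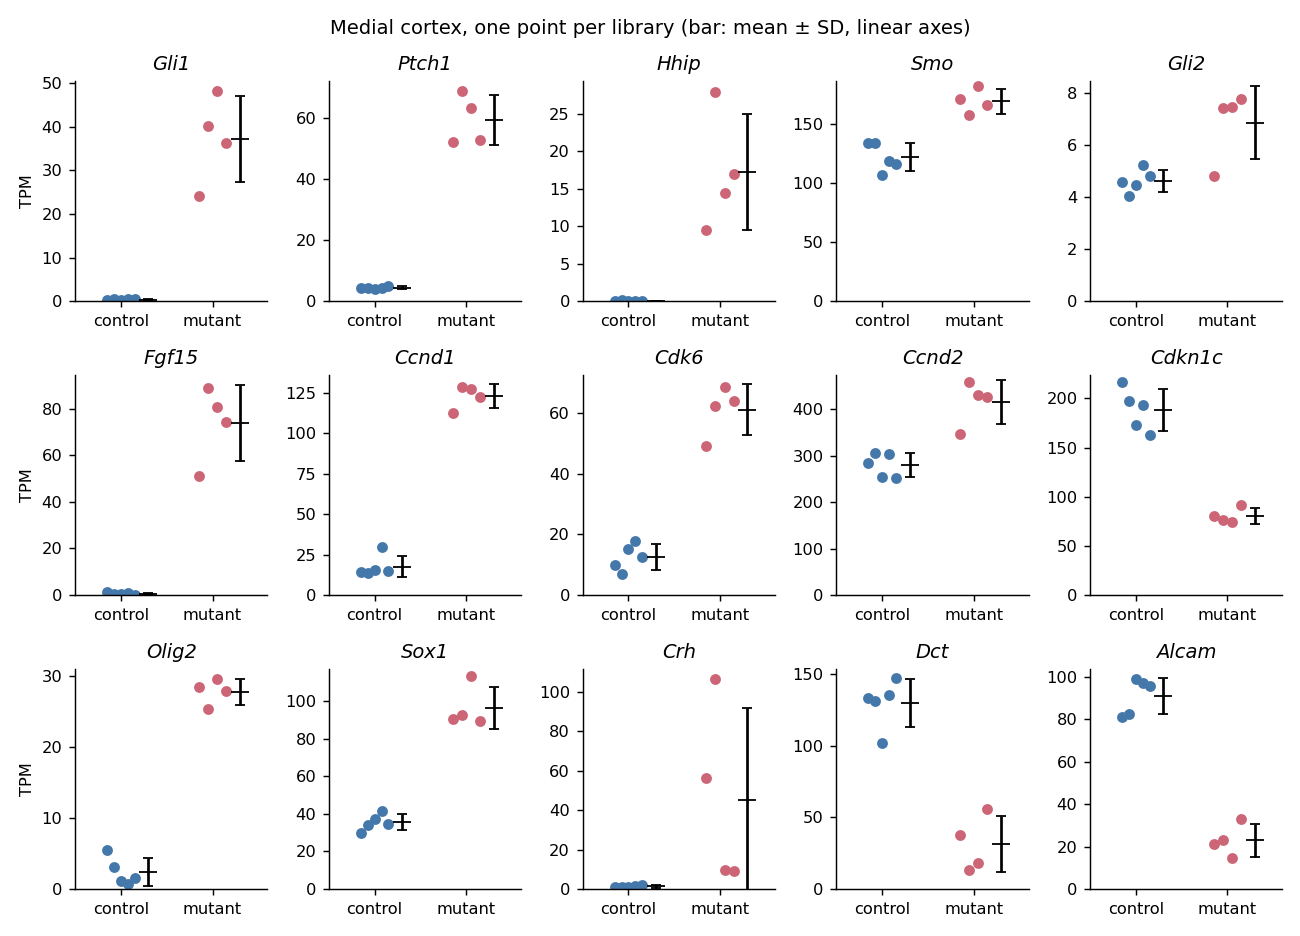
TPM of 15 genes in each medial library (blue, 5 control libraries; red, 4 mutant libraries; bar, mean ± SD; linear axes from 0). The 4 mutant libraries lie above all controls for Gli1, Ptch1, Hhip, Fgf15, Ccnd1 and Cdk6 and below them for Cdkn1c, Dct and Alcam, whereas mutant library 1 lies among the controls for Gli2.

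A growth factor gene had one of the largest rises. Fgf15, a secreted fibroblast growth factor of progenitor cells (chromosome 7, 144896531 to 144900953), was at 1.28, 0.441, 0.446, 0.727 and 0.0585 TPM in the controls and at 50.9, 88.6, 80.8 and 74.4 TPM in the mutants. The rise of 5.57 ± 0.22 (adjusted p = 1.04e-06) was followed down the list of 20 FGF and ERK pathway genes by 3 rises and 12 falls in all (3 and 11 after rescaling), with a median of -0.50. FGF receptors signal through the kinase ERK, and many genes of this list are ERK targets or feedback inhibitors. Most of those that fell were of that kind, beside the ligand gene Fgf2 and its relatives Fgf13 and Fgf18, whose calls were lost in 9, 3 and 18 of 24 alternatives. Dusp6, a phosphatase of ERK, was at 32.1 to 50.3 TPM in the controls and 20.3 to 27.9 TPM in the mutants (-0.71 ± 0.14, adjusted p = 0.00319). Spred1, an inhibitor of RAS signalling, fell by 0.33 ± 0.05 (adjusted p = 0.00151), Spred3 by 0.64 ± 0.12 (adjusted p = 0.0023), and Etv5, an ETS transcription factor, by 1.18 ± 0.29 (adjusted p = 0.0114; 0.0637 in the low-hem and 0.0959 in the male libraries). Il17rd, which encodes a membrane inhibitor of FGF signalling, went from 9.09 ± 3.63 to 2.48 ± 1.15 TPM (-1.51 ± 0.30, adjusted p = 0.00381). Fgfr3 rose by 0.66 ± 0.17 (adjusted p = 0.0152; 0.0795 with the description number as a block) and Fgfr1 fell (32.1 to 19.5 TPM between the group means; adjusted p = 0.0059, and 0.0823 in the male libraries), while Fgfr2 was at 43 TPM in controls and 43.2 TPM in mutants. In the male libraries 3 of the 20 were called higher and 4 lower.

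Cell cycle genes rose as a group, beginning with the D-type cyclins and their kinase, which move cells out of G1. Ccnd1, cyclin D1 (chromosome 7, 144929931 to 144939925), was at 14.2, 13.9, 15.7, 29.6 and 15 TPM in the controls and 113, 129, 127 and 123 TPM in the mutants. Control library 5 was higher than the other controls, yet far from any mutant, and the change was 2.79 ± 0.20 (adjusted p = 2.67e-05). Cdk6 (chromosome 5, 3341485 to 3531008), the kinase that pairs with D-type cyclins, stood at 9.94, 7.07, 15.3, 17.8 and 12.4 TPM in the controls and 49.1, 62.4, 68.7 and 64.1 TPM in the mutants. It rose by 2.25 ± 0.23 (adjusted p = 0.000154). Ccnd2, cyclin D2 (chromosome 6, 127125162 to 127152193), rose from 252 to 306 TPM in the controls to 347 to 458 TPM in the mutants (0.56 ± 0.09, adjusted p = 0.00116). Cdk4, the sister kinase, was at 632 to 673 TPM in the controls and 682 to 693 TPM in the mutants; its 0.06 ± 0.03 did not pass (adjusted p = 0.168), and it passed after median-ratio rescaling (0.17, adjusted p = 0.00711) and with the histone genes left out (adjusted p = 0.00932). Cdkn1c, the inhibitor p57 of cyclin-dependent kinases (chromosome 7, 143458339 to 143461050), was at 217, 197, 173, 193 and 163 TPM in the controls and 80.9, 75.9, 73.9 and 91.4 TPM in the mutants. It was the only one of the 24 G1 genes to fall (-1.21 ± 0.09, adjusted p = 2.14e-05), while 15 rose (16 and 1 after rescaling), with a median of 0.33. Among the rises were E2f1, the transcription factor of S-phase entry (18.8 ± 2.44 to 42.3 ± 5.47 TPM, 1.13 ± 0.11, adjusted p = 9.03e-05), E2f2 (0.76 ± 0.11) and the cyclin gene Ccne2 (0.94 ± 0.11).

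All 45 S-phase genes tested were called higher (45 after rescaling), with changes from 0.18 to 1.04 and a median of 0.62. For 44 of them the libraries of the groups did not overlap. Mcm6 and Mcm5, subunits of the helicase that opens DNA for replication, are examples. Mcm6 (chromosome 1, 128331590 to 128359664) was at 148, 156, 138, 164 and 146 TPM in the controls and 264, 277, 286 and 272 TPM in the mutants (0.87 ± 0.05, adjusted p = 1.1e-05), and Mcm5 rose by 0.80 ± 0.05 (adjusted p = 1.76e-05). Cdc45, a partner of that helicase, rose by 0.94 ± 0.06 and Fen1, the nuclease that trims Okazaki fragments, by 0.83 ± 0.05 (both with adjusted p = 1.12e-05). Of 51 genes of G2 and mitosis 47 were higher and 0 lower (49 and 0 after rescaling), with a median of 0.53 and a largest change of 0.66. Ccnb2, cyclin B2, which starts mitosis (chromosome 9, 70407692 to 70421547), was at 121 to 132 TPM in the controls and 184 to 214 TPM in the mutants (0.65 ± 0.05, adjusted p = 2.87e-05). Nek2, a kinase of the centrosome (0.53 ± 0.05), Racgap1, needed for cytokinesis (0.53 ± 0.05), and Nuf2, a kinetochore subunit (0.56 ± 0.05), rose with adjusted p between 5.11e-05 and 7.05e-05. In the male libraries 42 of 45 and 42 of 51 were still called higher, against 9 of the 24 G1 genes.

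Histone genes, which are transcribed at high level during S phase, took a larger part of each mutant library. Their summed share was 7.75% ± 0.75 (SD, n = 5; 6.79% to 8.69%) in the controls and 12.4% ± 0.07 (n = 4; 12.4% to 12.5%) in the mutants. The difference of 4.68 percentage points had an exact two-sided permutation p of 0.0159, the smallest that 5 against 4 libraries can give. Of 66 histone genes tested, 52 were higher and 0 lower (54 and 0 after rescaling), with a median of 0.69. Hist1h2bk rose from 3216 to 3823 TPM in the controls to 5893 to 6373 TPM in the mutants (0.78 ± 0.05, adjusted p = 1.76e-05), and the linker histone gene Hist1h1b rose by 0.70 ± 0.05 (adjusted p = 2.22e-05). Most transcripts of these genes lack a poly(A) tail, and a total RNA kit, such as the one used here, keeps them; near-identical copies within the clusters may share reads.

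The promoters of the cell cycle lists were searched for short motifs of known cell cycle regulators. E2F factors bind sites such as TTTCCCGC, TTTGGCGC, TTTGCCGC and TTTCGCGC, and the cell cycle homology region, TTTGAA, is a site of the complexes that time G2 and mitosis. The letters were searched on both strands of the RefSeq promoters (GRCm38.p6, 250 bases before to 50 after the start), which matched 9754 of the 13123 genes tested. An E2F site stood in 4.83% of the tested promoters, in 12.5% of those of genes called higher, in 15 of 36 S-phase promoters (41.7%) and in 3 of 43 G2 and mitosis promoters (6.98%). TTTGAA stood in 13.7% of the tested promoters and in 32 of 43 G2 and mitosis promoters (74.4%), against 6 of 36 S-phase promoters (16.7%). Over all 32851 promoters in the table the shares were 2.26% and 17.9%. The lists hold genes picked for a shared function, so these shares describe the lists and were not tested. The GLI site GACCACCCA stood in 24 of the 9754 tested promoters (0.246%), in 5 of 859 of genes called higher (0.582%), in 4 of 2809 of genes called lower (0.142%) and in 0 of 59 of genes at least 2-fold higher; an absent match says only that the letters are not in these windows. The windows below, 60 bases upstream of the start in the sense of the gene, show the E2F site in capitals for 4 S-phase genes that rose by 0.70 to 0.93, with their positions on GRCm38.p6 (Cdc6 chr11:98907987-98908046, plus strand; Mcm6 chr1:128359719-128359778, minus strand; Mcm5 chr8:75109334-75109393, plus strand; Uhrf1 chr17:56304102-56304161, plus strand).
Cdc6: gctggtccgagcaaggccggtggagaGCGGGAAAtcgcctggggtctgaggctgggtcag
Mcm6: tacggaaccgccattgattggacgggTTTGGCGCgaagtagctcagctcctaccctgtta
Mcm5: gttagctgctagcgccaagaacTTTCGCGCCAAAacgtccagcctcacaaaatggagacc
Uhrf1: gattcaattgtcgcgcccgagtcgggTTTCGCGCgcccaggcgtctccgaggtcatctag
In Mcm5 a pair of sites on opposite strands overlap. The next windows show TTTGAA, or its reverse complement in Kif2c, in capitals for 4 genes of mitosis that rose by 0.59 to 0.66: Ncapg, a condensin subunit (chr5:45669865-45669924, plus strand), Ccnb2 (chr9:70421689-70421748, minus strand), the kinase gene Cdk1 (chr10:69352913-69352972, minus strand) and the kinesin gene Kif2c (chr4:117178843-117178902, minus strand).
Ncapg: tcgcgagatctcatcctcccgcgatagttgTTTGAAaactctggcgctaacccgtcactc
Ccnb2: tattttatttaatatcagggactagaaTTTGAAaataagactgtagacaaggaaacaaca
Cdk1: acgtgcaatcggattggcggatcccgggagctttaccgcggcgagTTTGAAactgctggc
Kif2c: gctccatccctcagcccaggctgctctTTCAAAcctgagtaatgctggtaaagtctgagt
The motif began between 15 and 185 bases before the start in these 8 windows. A match of letters is a description of the promoter and not evidence of binding.

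Radial glial genes moved in both directions, 6 of 24 up and 7 down (7 and 3 after rescaling). The SoxB factors, which keep cells in a progenitor state, were among the rises. Sox1 (chromosome 8, 12395295 to 12400126) was at 30, 34.2, 37.3, 41.7 and 34.4 TPM in the controls and 90.5, 92.8, 113 and 89.4 TPM in the mutants, a clear separation (1.42 ± 0.10, adjusted p = 1.76e-05). Sox2 rose by 0.45 ± 0.07 (301 to 345 against 405 to 518 TPM, adjusted p = 0.00126), while Sox3 fell from a mean of 64.6 to 53.2 TPM as deposited, a call lost in 7 alternatives, among them median-ratio rescaling (0.0948). Pax6, the transcription factor of cortical radial glia (chromosome 2, 105668900 to 105697364), was at 42.9 to 47.8 TPM in the controls and 50.1 to 64.2 TPM in the mutants. Its rise of 0.28 ± 0.07 (adjusted p = 0.00893) lost its call with sex as a covariate (0.0775) and in the male libraries (0.142). Fewer fell after rescaling, and 7 of 24 is close to the 28.4% of all genes that were lower. Among the falls, Aldoc, a glycolytic enzyme, went from 302 to 357 TPM to 111 to 163 TPM (-1.34 ± 0.12, adjusted p = 6.42e-05). Fabp7, the brain lipid-binding protein, fell by 0.86 ± 0.11 (1246 ± 162 to 686 ± 88.4 TPM, adjusted p = 0.000424) and Mfge8, a secreted adhesion protein, by 0.58 ± 0.07 (adjusted p = 0.000287). Nes (0.16 ± 0.09, adjusted p = 0.183) and Vim (0.08 ± 0.09, adjusted p = 0.525), intermediate filament genes of progenitors at large, did not pass as deposited, and Nes passed after rescaling (adjusted p = 0.0319) and without mutant library 1 (0.0427).

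Genes known as markers of outer radial glia did not move one way. Of the 16 that passed the filter, out of 20 listed, 3 rose and 6 fell (3 and 3 after rescaling). As deposited, 18.8% were higher and 37.5% lower, against 8.96% and 28.4% of all genes. After rescaling, 15.9% of all genes were higher and 14.6% lower. Hopx, the marker used most often for these cells (chromosome 5, 77086988 to 77115121), was at 87.2, 57.2, 38.6, 24.5 and 50.2 TPM in the controls and 70.1, 20.8, 37.2 and 34.2 TPM in the mutants. Both groups spread widely over the same range (-0.35 ± 0.41, adjusted p = 0.541), and its highest values came from libraries 2 of the controls and 1 of the mutants, which also had high levels of the hem genes below. Moxd1, a monooxygenase-like gene, went from 0.332 ± 0.101 to 4.54 ± 2.78 TPM (1.94 ± 0.25, adjusted p = 0.000411). Itgb5, an integrin subunit, rose by 0.62 ± 0.08 (adjusted p = 0.000375) and Slc1a3, a glutamate transporter, by 0.73 ± 0.15 (adjusted p = 0.00497). Lifr, the receptor of leukaemia inhibitory factor, fell by 0.47 ± 0.10 (adjusted p = 0.0047) and lost that call in the male libraries (0.0578). In the male libraries 3 of the 16 were higher and 0 lower.

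Among 24 genes of intermediate progenitors 4 rose and 9 fell (6 and 7 after rescaling). As deposited, 16.7% were higher and 37.5% lower, against 8.96% and 28.4% of all genes. After rescaling, 15.9% of all genes were higher and 14.6% lower. Eomes, the transcription factor that defines these cells (chromosome 9, 118478212 to 118486132), was at 232, 247, 257, 262 and 252 TPM in the controls and 255, 298, 304 and 296 TPM in the mutants. Mutant library 1 lay within the control range, and the rise of 0.20 ± 0.06 (adjusted p = 0.0198) lost its call in 7 alternatives. These were the fits to all 19 libraries without (0.0764) and with the embryo as a block (0.162), sex as a covariate (0.144), the male libraries (0.204), and the fits without mutant library 2 (0.0558), 3 (0.057) or 4 (0.0523). Neurog1, a proneural factor, rose from 12.6 ± 2.71 to 30.1 ± 6.43 TPM (1.19 ± 0.18, adjusted p = 0.000888). Neurog2, its relative and the main proneural factor of the cortex, fell by 0.29 ± 0.07 (adjusted p = 0.00868), a call lost after median-ratio rescaling (0.0642), with sex as a covariate (0.0535), in the male libraries (0.112) and in the 6 libraries low in hem genes (0.0743). Other members fell. Kif26b, a kinesin of the cytoskeleton (chromosome 1, 178529125 to 178939200), fell from 10.1 to 17.1 TPM in the controls to 2.82 to 5.79 TPM in the mutants (-1.65 ± 0.19, adjusted p = 0.000246). Rhbdl3, a rhomboid protease gene, fell by 0.92 ± 0.11 (adjusted p = 0.000218), and Unc5d, a netrin receptor of multipolar cells, by 1.09 ± 0.14 (adjusted p = 0.000396).

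Notch pathway genes, which keep progenitors from differentiating, showed 3 rises and 5 falls among 21 (4 and 4 after rescaling). As deposited, these shares were 14.3% higher and 23.8% lower, against 8.96% and 28.4% of all genes. After rescaling, 15.9% of all genes were higher and 14.6% lower. Jag1, a ligand, rose from 9.4 to 11.4 TPM in the controls to 15.8 to 19.8 TPM in the mutants (0.71 ± 0.08, adjusted p = 0.000219). Dlk1, a non-canonical ligand, rose by 0.70 ± 0.14 (adjusted p = 0.00428) at a level of 1.05 to 2.13 TPM in the mutants and lost that call in the low-hem (0.0537) and male libraries (0.0672) and with the title number as a block (0.0649). The target genes Nrarp (-0.46 ± 0.07, adjusted p = 0.00102) and Hey1 (-0.53 ± 0.11, adjusted p = 0.00429) fell. Hes1, the effector most often named in radial glia, was at 83.8 to 106 TPM in the controls and 80.6 to 100 TPM in the mutants and did not pass (-0.07 ± 0.08, adjusted p = 0.489).

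Genes of the medial pallium, from which the hippocampus forms, were called lower in 12 of 25 cases and higher in 2 (11 and 3 after rescaling), with a median of -0.41. Dmrt3, a patterning factor graded toward the medial edge (chromosome 19, 25610301 to 25623921), was at 35.7, 43, 25.6, 28.8 and 31.4 TPM in the controls and 21.8, 4, 14.1 and 9.17 TPM in the mutants. Its fall of 1.54 ± 0.38 (adjusted p = 0.0126) lost its call with sex as a covariate (0.081), in the male libraries (0.143) and with the description number as a block (0.0587). Emx1, a transcription factor of the whole dorsal pallium, fell by 0.38 ± 0.07 (165 to 195 against 121 to 153 TPM, adjusted p = 0.00298; 0.0666 in the male libraries). Zeb2 (-0.51 ± 0.07, adjusted p = 0.000717), which encodes a zinc finger factor of neuronal differentiation, and the nuclear factor I genes Nfib (-0.41 ± 0.06, adjusted p = 0.000939) and Nfia (-0.37 ± 0.07, adjusted p = 0.0021), which drive hippocampal and glial development, fell without overlap. Dmrt3, Emx1, Zeb2, Nfib and Nfia also fell in dorsal cortex (-1.26, -0.28, -0.52, -0.57 and -0.46), so their fall was not particular to medial cortex. Both rises were of the COUP factors of caudal and lateral cortex, Nr2f1 (66.5 ± 14 to 109 ± 16.7 TPM, 0.72 ± 0.16, adjusted p = 0.00682) and Nr2f2 (0.79 ± 0.28, adjusted p = 0.0479). Nr2f1 lost its call with sex as a covariate (0.0523) and in the male libraries (0.0541). Nr2f2 lost its call in 12 of 24 alternatives, with adjusted p of 0.0616 to 0.126 in the fits without control library 2, 4, 5 or 6 or mutant library 1, 3 or 4. Prox1, the factor of dentate granule cells, was at 2.28 to 6.09 TPM in the controls and 1.79 to 7.75 TPM in the mutants (-0.02 ± 0.37, adjusted p = 0.979). In the male libraries 4 of the 25 genes were lower and 0 higher. Of the markers set for the medial pallium, Dmrt3 and Lhx9 fell, while Wnt8b and Zbtb20 did not pass (adjusted p = 0.402 and 0.177). Lhx9 lost its call with sex as a covariate (0.107) and in the male libraries (0.136).

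The hem genes themselves differed more between libraries than between genotypes. Wnt3a, the ligand gene that defines the hem (chromosome 11, 59248033 to 59290752), was at 8.76, 7.77, 0.206, 0.043 and 2.43 TPM in control libraries 2 to 6 and at 7.83, 0.0468, 0.0318 and 0 TPM in mutant libraries 1 to 4. Wnt8b, a ligand gene of hem and hippocampal primordium, was at 22.8, 17.6, 1.88, 0.352 and 8.21 TPM in the controls and 23.7, 0.0765, 0.598 and 0.144 TPM in the mutants. Lmx1a, a transcription factor of the hem, was at 8.24, 7.47, 1.87, 0.664 and 2.27 TPM and at 11, 0.342, 0.465 and 0.406 TPM. Control libraries 2 and 3 and mutant library 1 were thus high in all 3 genes, and the other mutants at or near 0. Wnt3a, Wnt8b and Lmx1a did not pass (adjusted p = 0.483, 0.402 and 0.457), and Lmx1a passed with the title number as a block (0.0191). Of the 13 hem genes tested, out of 20 listed, 1 rose and 2 fell (1 and 1 after rescaling), with a median of -0.79. Their summed level ran from 182 to 307 TPM in the controls and from 94.9 to 260 TPM in the mutants, and whether the amount of hem in a dissected piece took part in any result was not tested. Id1, a BMP response gene, was the rise (0.68 ± 0.16, adjusted p = 0.00835; 0.0805 with the title number as a block). Rspo3, a secreted enhancer of Wnt signalling, was at 45.9 to 80 TPM in the controls and 71.1, 30.7, 22.6 and 33.5 TPM in the mutants; it did not pass (-0.77 ± 0.30, adjusted p = 0.0757) and passed in 6 of 24 alternatives: without mutant library 1 (0.00398), in the low-hem libraries (0.0105), in the fits of all 19 libraries without (0.0104) and with the embryo as a block (0.0292), and with the title (0.0235) or description number (0.0414) as a block.

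Restricted to the 6 libraries in which Wnt3a and Lmx1a together stayed under 10 TPM, control 4 to 6 and mutant 2 to 4, a choice made after seeing the data, 995 genes were higher and 2605 lower. The choice did not match the genotypes for hem genes. The hem list summed to 196, 182 and 240 TPM in these controls and to 122, 94.9 and 135 TPM in these mutants. The counts of the cell cycle lists stayed close, at 44 of 45 S-phase and 45 of 51 G2 and mitosis genes higher. In that set 10 of 25 medial pallium genes were lower and 2 higher, and 3 of 13 hem genes lower and 1 higher. Of the 17 genes of the Wnt list below, 8 were lower and 0 higher.

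Genes of the Wnt list, which holds secreted antagonists as well as response genes, fell or did not pass. Of these, 7 of 17 were lower and 0 higher (5 and 0 after rescaling), with a median of -0.55. Sfrp1, a secreted Wnt antagonist of the ventricular zone (chromosome 8, 23411502 to 23449632), fell from 209 to 247 TPM to 125 to 185 TPM (-0.55 ± 0.10, adjusted p = 0.00266), and its relative Sfrp2 fell by 0.41 ± 0.07 (adjusted p = 0.00211; 0.0666 in the male libraries). Nkd1, a feedback inhibitor induced by Wnt, fell by 0.60 ± 0.13 (adjusted p = 0.00633; 0.0566 in the male libraries). Axin2, the standard readout of the pathway, was at 38.3, 40, 20.9, 19.2 and 26 TPM in the controls and 24.1, 10.8, 18.1 and 12.5 TPM in the mutants, and did not pass (-0.78 ± 0.28, adjusted p = 0.0553). It passed in 6 alternatives, among them the fits without control library 5 (0.0378) or mutant library 1 (0.0243). Its highest controls were libraries 2 and 3 and its highest mutant was library 1, the 3 that were high in hem genes. Male libraries alone gave 1 of the 17 lower.

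Of 18 BMP pathway genes 11 fell and 2 rose (8 and 2 after rescaling). Nog, which encodes the antagonist noggin, was at 20.7 ± 1.06 TPM in the controls and 13.2 ± 1.34 TPM in the mutants, tight groups that did not overlap (-0.62 ± 0.07, adjusted p = 0.000267). Smad1, the transcription factor the receptors act on, fell by 0.37 ± 0.05 (adjusted p = 0.000532) and the receptor gene Acvr1 by 0.53 ± 0.10 (adjusted p = 0.00311). Fst, follistatin, rose beside Id1 (0.37 ± 0.10, adjusted p = 0.0184), a call lost in the low-hem (0.101) and male libraries (0.102) and without mutant library 4 (0.053). Of the 18, 4 were lower and 1 higher in the male libraries, and 6 and 1 in the low-hem libraries.

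Cajal-Retzius neurons cover the cortical surface and secrete reelin. Reln (chromosome 5, 21884454 to 22344702) was at 91.8, 73.5, 67.3, 94.7 and 68.3 TPM in the controls and 40.9, 26.4, 44.7 and 57.5 TPM in the mutants. The groups did not overlap (-0.92 ± 0.20, adjusted p = 0.00697), but the call was lost in the low-hem libraries (0.076), in the male libraries (0.0752) and with the title number as a block (0.149). Trp73, a p53 relative needed by these cells, was at 4.69 to 9.16 TPM against 2.12 to 5.26 TPM and missed the threshold (-0.63 ± 0.23, adjusted p = 0.0523; 0.04 without control library 4 and 0.035 without mutant library 1), and Ebf2 was at 1.03 to 1.58 TPM against 0.832 to 1.7 TPM (adjusted p = 0.316). Of 19 genes of the list 5 fell and 0 rose (3 and 0 after rescaling), a share lower of 26.3%, near the 28.4% of all genes. Only 1 was lower in the male libraries and 3 in the low-hem libraries. The summed level of the list ran from 273 to 494 TPM in the controls, highest in libraries 2 and 3, and from 156 to 312 TPM in the mutants, highest in library 1.

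Choroid plexus, which borders the hem, was present in a few libraries of either genotype. Ttr, transthyretin, the most abundant transcript of that epithelium, was at 47.2, 6.08, 934, 0.584 and 1.84 TPM in the controls and 0.925, 17.3, 161 and 1.6 TPM in the mutants. Control library 4 and mutant library 3 stood out, also in Clic6 (10.8 and 2.51 TPM), and 1 of the 8 genes tested passed: Foxj1, a factor of motile cilia, fell by 0.82 ± 0.23 (adjusted p = 0.0198). That call was lost with sex as a covariate (0.19), in the male libraries (0.253), with quantile normalization (0.0553) and without mutant library 4 (0.0507).

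**Figure D3:**
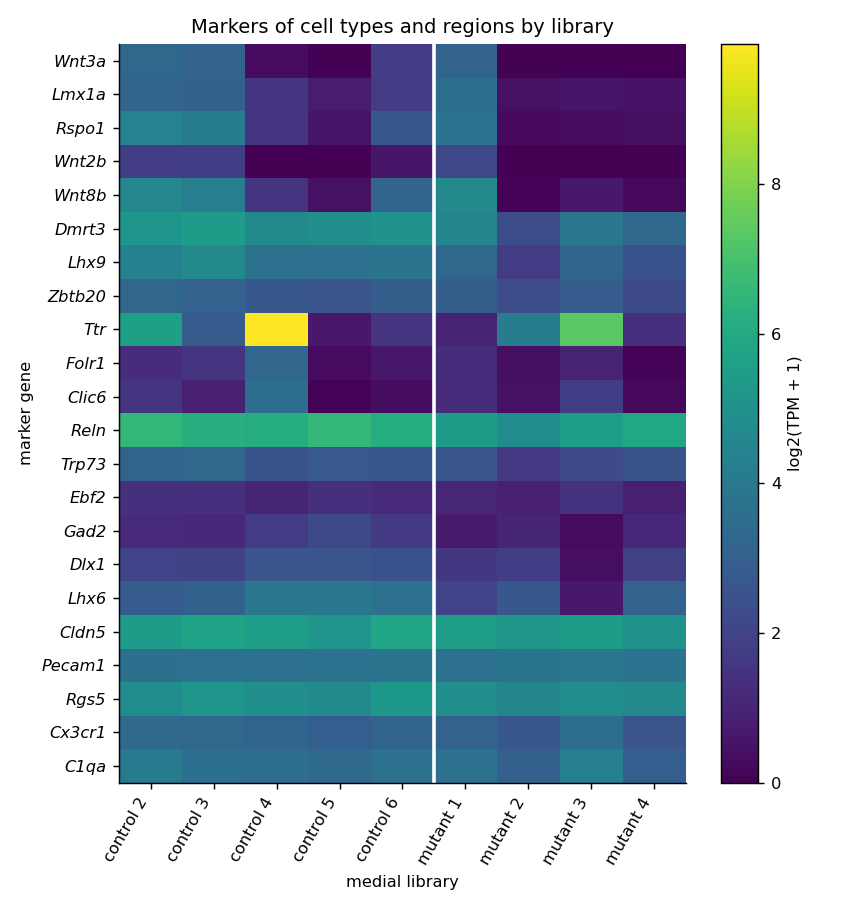
Level of 22 marker genes (rows, log2 of TPM + 1 as colour) in each of the 9 medial libraries (columns, controls left of the white line). Wnt3a, Lmx1a, Rspo1, Wnt2b and Wnt8b are high in control libraries 2 and 3 and mutant library 1, and Ttr is high in control library 4 and mutant library 3.

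Genes of ventral telencephalon, where Hedgehog normally sets cell fate, reached the filter in 8 of 16 cases. Olig2, a transcription factor of ventral and oligodendrocyte progenitors (chromosome 16, 91225457 to 91228677), was at 5.55, 3.04, 1.09, 0.731 and 1.48 TPM in the controls and 28.4, 25.3, 29.5 and 27.8 TPM in the mutants. The mutants were close to each other and the rise was 3.27 ± 0.35 (adjusted p = 0.000196). It was the only rise in that list, in which 1 gene fell (1 and 0 after rescaling); its partner Olig1 was at means of 1.18 and 1.59 TPM and did not pass (adjusted p = 0.488). The ventral factors Nkx2-1, Gsx1, Gsx2 and Nkx6-2 did not reach the filter. Dlx1, a factor of ventral progenitors and interneurons, was at 2.87 to 5.15 TPM in the controls and 2.02, 2.58, 0.293 and 2.69 TPM in the mutants (-0.91 ± 0.31, adjusted p = 0.0408), a call lost in 15 of 24 alternatives, among them median-ratio rescaling (0.0723) and the fits without control library 4 (0.0862), 5 (0.0785) or 6 (0.0838) or mutant library 1 (0.0582). Olig3, a factor of the thalamic and caudal hem progenitors (chromosome 10, 19356533 to 19358604), was listed at 0 to 0.406 TPM in the controls and at 2.16, 2.33, 5.32 and 3.01 TPM in the mutants (1.88 ± 0.21, adjusted p = 0.000186). Dbx1, a homeobox factor of other progenitor domains at the borders of the cortex (chromosome 7, 49631499 to 49636849), was between 0 and 0.178 TPM in the controls and at 2.2, 9.39, 7.85 and 6.68 TPM in the mutants (2.68 ± 0.29, adjusted p = 0.000181).

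Interneurons reach the cortex from the ventral telencephalon. Of 23 interneuron genes 13 fell and 0 rose (8 and 0 after rescaling), with a median of -0.63. Lhx6, a factor of interneurons from the medial ganglionic eminence, was at 6.28 and 7.35 TPM in control libraries 2 and 3 and at 12.3 TPM or more in the other 3, and at 2.95, 5.46, 0.603 and 7.6 TPM in the mutants. Mutant library 3 was the lowest for Lhx6, Dlx1 (0.293 TPM) and Gad2 (0.209 TPM), and controls 2 and 3 were the lowest controls for all 3. The fall of Lhx6, 1.39 ± 0.47 (adjusted p = 0.0432), was lost in 17 of 24 alternatives, among them median-ratio rescaling (0.067) and the fits without control library 3 (0.0532), 4 (0.0892), 5 (0.0866) or 6 (0.0879) or mutant library 1 (0.0879) or 3 (0.0646). Sp8, a zinc finger factor also expressed in other cells, fell without overlap (-0.98 ± 0.21, adjusted p = 0.00584; 0.0646 with sex as a covariate). Male libraries alone gave 4 of the 23 lower.

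Genes of the glial lineage split, with 4 of 18 up and 5 down (4 and 5 after rescaling). These shares were 22.2% higher and 27.8% lower in both scalings. Of all genes, 8.96% were higher and 28.4% lower as deposited, and 15.9% and 14.6% after rescaling. Egfr, the receptor that rises in progenitors turning to glia (chromosome 11, 16752203 to 16918158), was at 0.136 to 0.271 TPM in the controls and 2.41, 2.91, 2.5 and 1.51 TPM in the mutants (1.45 ± 0.14, adjusted p = 8.78e-05). Bcan, the matrix proteoglycan brevican (chromosome 3, 87987531 to 88000230), was at 114, 93.7, 84.6, 54.1 and 87.6 TPM in the controls and 24.4, 25, 47.9 and 19.9 TPM in the mutants. It fell by 1.58 ± 0.27 (adjusted p = 0.00228; 0.0625 in the male libraries), as did its relative Ncan, neurocan, by 0.56 ± 0.09 (adjusted p = 0.00116). Gfap, Aldh1l1, Pdgfra and Sox10, which define astrocytes and oligodendrocyte precursors, were below the filter.

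Genes expressed in neurons at large were called lower more often than all genes, though the difference was not tested. Of 29 such genes 19 fell and 0 rose (16 and 1 after rescaling), with a median of -0.54. Gap43, a growth cone protein (chromosome 16, 42248442 to 42340651), was at 304, 285, 314, 260 and 320 TPM in the controls and 205, 203, 173 and 207 TPM in the mutants (-0.59 ± 0.07, adjusted p = 0.000347). Ina, a neuronal filament, fell by 0.59 ± 0.08 (adjusted p = 0.000526) and Tubb3, the tubulin of young neurons, by 0.52 ± 0.10 (1972 to 2466 against 1247 to 1761 TPM, adjusted p = 0.00288). Neurod6 (-0.40 ± 0.16, adjusted p = 0.0674; 0.0395 without control library 3 and 0.0382 without mutant library 2) and Neurod2 (-0.36 ± 0.17, adjusted p = 0.123), factors of young projection neurons, did not pass. The cortical markers Emx1, Neurod6 and Neurod2 were present in both groups.

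By layer, 13 of 23 deep-layer genes fell and 0 rose (9 and 0 after rescaling), and 7 of 21 upper-layer genes fell and 1 rose (6 and 1). As deposited, 33.3% of the upper-layer genes were lower, near the 28.4% of all genes. After rescaling, 6 of 21 upper-layer genes were lower, against 14.6% of all genes. Male libraries alone gave 5 deep-layer and 6 upper-layer genes lower, against 1502 of all 13123 genes. Nxph4, a secreted ligand of neurexins in layer 6 and the subplate (chromosome 10, 127525473 to 127534559), was at 20.8, 20.4, 17.5, 16.9 and 21.8 TPM in the controls and 8.02, 7.25, 7.02 and 8.48 TPM in the mutants (-1.23 ± 0.09, adjusted p = 2.22e-05). Pcp4, a calmodulin regulator, fell by 0.74 ± 0.12 (adjusted p = 0.00152) and Bcl11b, the factor of subcerebral neurons, by 0.70 ± 0.19 (adjusted p = 0.0166), a call lost in the male libraries (0.0613) and without mutant library 3 (0.0502). Tbr1, the factor of early layer 6 neurons, was at 36 to 55.2 TPM in the controls and 28.4 to 37.9 TPM in the mutants; its call (-0.45 ± 0.14, adjusted p = 0.0282) was lost in 8 alternatives, among them median-ratio rescaling (0.0881) and the fits without control library 4 (0.0522) or 6 (0.0666) or mutant library 1 (0.0716) or 3 (0.0792). In the upper-layer list Dok5, an adaptor protein (chromosome 2, 170731807 to 170879769), fell from a lowest control of 72.3 TPM to 20.5 to 37.2 TPM (-1.50 ± 0.17, adjusted p = 0.000242) and Ptn, the growth factor pleiotrophin, by 0.76 ± 0.11 (adjusted p = 0.000705). Tle1, a corepressor also present in progenitors, was the rise (0.42 ± 0.06, adjusted p = 0.000796).

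Axon guidance molecules showed the same direction, with 24 of 41 lower and 2 higher (19 and 2 after rescaling) and a median of -0.52. Alcam, an adhesion molecule of growing axons (chromosome 16, 52248996 to 52454074), was at 81.3, 82.4, 99.2, 97.2 and 95.6 TPM in the controls and 21.3, 23, 14.4 and 32.9 TPM in the mutants (-2.0 ± 0.19, adjusted p = 0.000113). Among receptors and ligands of the ephrin system, Epha4 fell from 361 to 408 TPM to 167 to 221 TPM (-0.92 ± 0.08, adjusted p = 4.33e-05), Epha7 by 0.90 ± 0.07 (adjusted p = 2.13e-05) and Efna3 by 1.18 ± 0.11 (adjusted p = 9.43e-05). Robo3, a receptor of commissural axons, was 1 of the rises (1.22, group means of 1.2 and 4.2 TPM), and Sema6a was the other (0.56). Robo3 lost its call in 4 alternatives, up to 0.14 in the male libraries, and Sema6a in 6, among them the fits without control library 4 (0.0514) or 6 (0.0505) or mutant library 1 (0.0534) or 3 (0.0627). In the male libraries 17 of the 41 genes were lower and 1 higher.

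**Figure D4:**
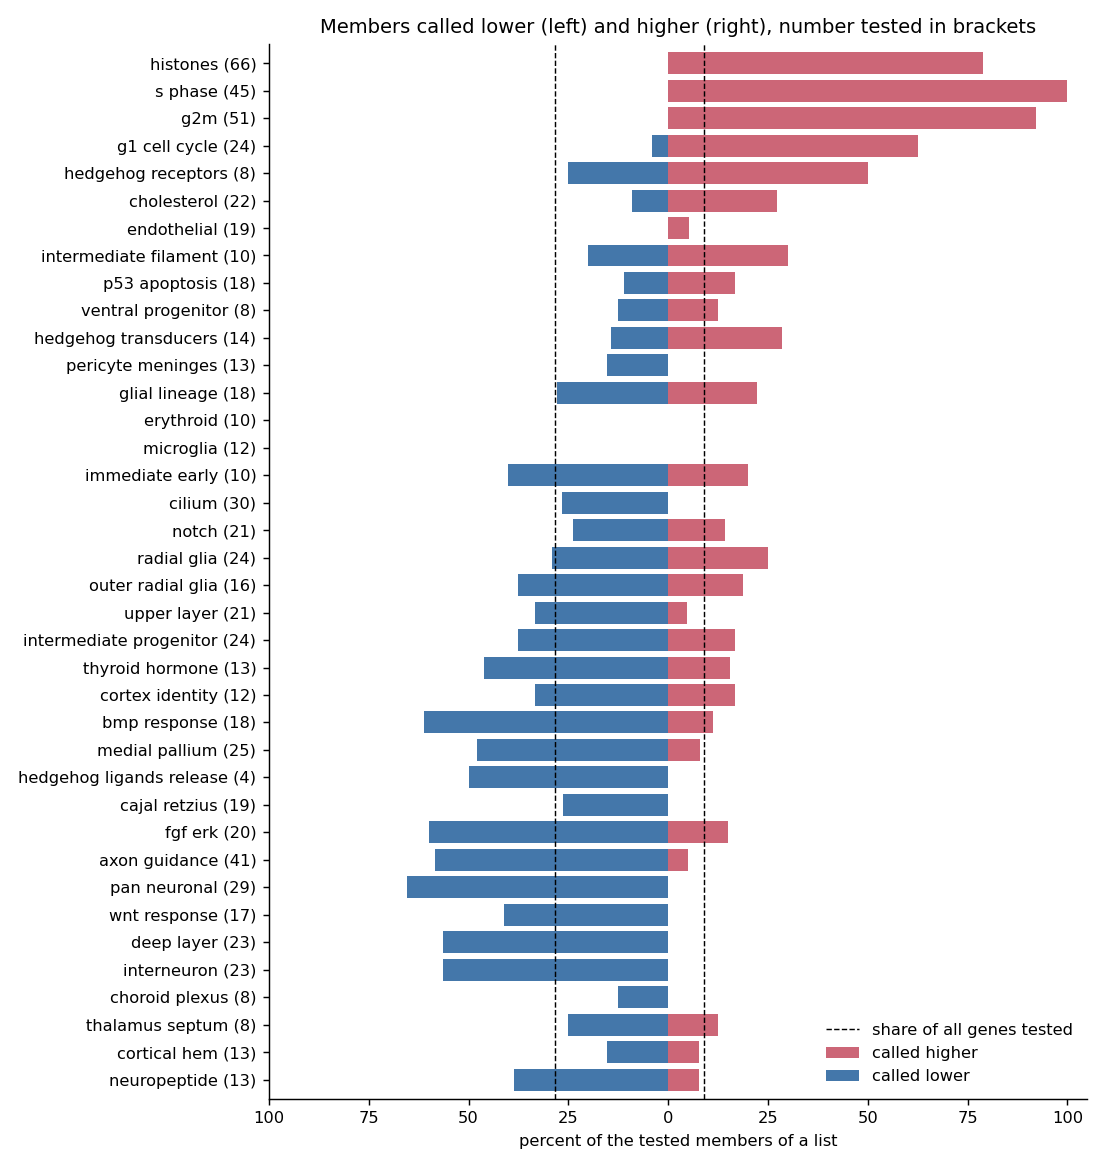
Share of the tested members of 38 gene lists called lower (blue, to the left) and higher (red, to the right) in the mutants, in percent, ordered by median change, with the share of all genes tested as dashed lines (28.4% lower, 8.96% higher). Histone, S-phase, G2 and mitosis and G1 genes lie far beyond the upward line, neuronal and axon guidance genes beyond the downward line, and erythroid and microglial genes have none called.

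Genes of thyroid hormone handling moved in a reciprocal way at the deiodinases. Dio3, the enzyme that inactivates the hormone (chromosome 12, 110279068 to 110281097), was listed at 0 in 4 controls and at 0.0585 TPM in control library 5, and at 3.7, 11.1, 3.24 and 3.2 TPM in the mutants. Its fitted change was 2.48 ± 0.28 (adjusted p = 0.000217), a value set partly by the 1 TPM added before taking logs. Dio2, the enzyme that activates the hormone (chromosome 12, 90724552 to 90738438), was at 7.3, 6.08, 2.69, 1.23 and 6.5 TPM in the controls and 0.534, 0.289, 0.166 and 0.196 TPM in the mutants (-2.0 ± 0.36, adjusted p = 0.00253). The receptor gene Thra fell by 0.69 ± 0.10 (adjusted p = 0.000971). In all, 2 of 13 genes rose and 6 fell (2 and 4 after rescaling).

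Peptide signalling genes included a large and uneven rise. Crh, corticotropin-releasing hormone (chromosome 3, 19693401 to 19695396), was at 0.794, 0.774, 1.15, 1.35 and 2.07 TPM in the controls and at 56.6, 107, 9.38 and 9.04 TPM in the mutants. Each mutant exceeded each control, but mutants 1 and 2 were far above mutants 3 and 4 (3.70 ± 0.70, adjusted p = 0.00385), and the call was lost in the low-hem libraries (0.072), in the male libraries (0.107) and with the title number as a block (0.0743). The somatostatin receptor gene Sstr1 (chromosome 12, 58211772 to 58214444) fell from 6.91, 6.66, 6.76, 3.77 and 7.41 TPM to 1.52, 0.821, 0.987 and 0.833 TPM (-1.83 ± 0.18, adjusted p = 9.47e-05). Adcyap1r1, the receptor of the peptide PACAP, fell by 1.16 ± 0.14 (adjusted p = 0.000335) and Cck, cholecystokinin, by 0.86 ± 0.10 (adjusted p = 0.000273). Of 13 genes tested 1 rose and 5 fell (1 and 5 after rescaling).

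Intermediate filament genes also split by member. Synm, synemin, a filament of progenitors and glia (chromosome 7, 67730160 to 67759742), was at 2.38, 2.29, 1.91, 1.53 and 1.83 TPM in the controls and 9.56, 17.6, 15.4 and 15.9 TPM in the mutants (2.36 ± 0.17, adjusted p = 1.76e-05). Prph, peripherin, a neuronal filament (chromosome 15, 99055174 to 99058978), fell from 3.46 to 8.59 TPM to 0.957 to 1.84 TPM (-1.67 ± 0.22, adjusted p = 0.000429). The counts were 3 up and 2 down among 10 (4 and 2 after rescaling).

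Smoothened acts in the primary cilium and is regulated by sterols. Of 30 cilium genes 8 fell and 0 rose as deposited, a share lower near the 28.4% of all genes, and 2 fell and 1 rose after rescaling; Ift20, a subunit of the transport complex, fell by 0.23 ± 0.04 (adjusted p = 0.00167), while Kif3b, a subunit of its motor, fell by 0.20 ± 0.05 (adjusted p = 0.0076) and lost that call in 5 alternatives, among them median-ratio rescaling (0.158). Of 22 cholesterol synthesis genes 6 rose and 2 fell, against 10 and 0 after rescaling. The male libraries gave 3 cilium genes lower and 2 cholesterol genes higher.

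Targets of p53 and apoptosis genes gave 3 rises and 2 falls among 18 (3 and 1 after rescaling). Eda2r, a receptor of the tumour necrosis factor family (chromosome X, 97333840 to 97377216), rose from 3 ± 0.97 to 11.5 ± 5.58 TPM (1.58 ± 0.28, adjusted p = 0.0021) and Trp53inp1, a stress protein, fell by 0.88 ± 0.07 (adjusted p = 3.11e-05), whereas Cdkn1a (0.16), Mdm2 (-0.08) and Bax (-0.09; adjusted p = 0.16, and 0.0197 without control library 5), the best known targets, did not pass. Among 10 early response genes 2 rose and 4 fell (2 and 3 after rescaling). Arc rose by 1.19 ± 0.22 (adjusted p = 0.00234; 0.0522 in the male libraries) and Ddit4 fell by 0.66 ± 0.07 (adjusted p = 0.000139). Fos, Egr1 and Npas4 were below the filter.

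The rest of the 15 largest rises among named genes had no list in common. Prm1, protamine 1, a chromatin protein of sperm (chromosome 16, 10796326 to 10805839), was at 0.223, 0.182, 0, 0.506 and 0 TPM in the controls and at 160, 217, 540 and 311 TPM in the mutants (7.89 ± 0.31, adjusted p = 1.77e-06). It had the largest change of any gene named here, and its neighbours Prm2, Prm3 and Tnp2 (chosen after their values were seen) were listed at 0 in all 9 libraries. As background, a piece of the protamine 1 gene serves as the polyadenylation signal of several Cre transgenes; whether the Prm1 reads came from such a transcript was not tested. Cacng5, an auxiliary subunit of AMPA receptors (chromosome 11, 107874605 to 107915055), rose from 1.99, 2.38, 2.15, 1.15 and 2.72 TPM to 30.2, 21.8, 26.1 and 18.8 TPM (3.04 ± 0.18, adjusted p = 1.03e-05). Entpd2, an enzyme that breaks down extracellular ATP (chromosome 2, 25395874 to 25401321), was at 0.167 to 1.88 TPM in the controls and 22.6, 9.29, 15.3 and 6.9 TPM in the mutants (2.71 ± 0.35, adjusted p = 0.000439). Peg10, an imprinted gene derived from a retrotransposon (chromosome 6, 4747306 to 4760517), rose from 3.44 to 5.86 TPM to 18.4 to 32.3 TPM (2.33 ± 0.17, adjusted p = 2.23e-05). Of these 15 rises 14 kept their call in each of the 24 alternatives, Crh being the exception. The 15 were picked among called genes whose libraries did not overlap, which favours keeping a call.

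Among the 15 largest falls, Dct led. It encodes dopachrome tautomerase, a melanin enzyme also expressed in the embryonic telencephalon (chromosome 14, 118012790 to 118052244). It was at 133, 131, 102, 136 and 147 TPM in the controls and 37.8, 13.5, 18.2 and 56.1 TPM in the mutants (-2.21 ± 0.37, adjusted p = 0.00233), and the call was lost in the male libraries (0.0509) and with the title number as a block (0.0971). Nfatc4, a calcium-dependent transcription factor (chromosome 14, 55823144 to 55833943), fell from 46.2 to 60.4 TPM to 10.5 to 17.8 TPM (-1.87 ± 0.14, adjusted p = 2.82e-05). Ly6g6e, a GPI-anchored protein (chromosome 17, 35076902 to 35078804), fell from 8.81 to 15.4 TPM to 1.1 to 3 TPM (-2.10 ± 0.21, adjusted p = 0.000125). Pcdh7, a protocadherin (chromosome 5, 57717967 to 58133230), was at 24.4, 20.8, 20.3, 21.9 and 24.8 TPM in the controls and 7.74, 5.09, 7.07 and 8.62 TPM in the mutants (-1.54 ± 0.13, adjusted p = 3.68e-05). Dusp26, a phosphatase gene (-1.77 ± 0.26), Cemip, which takes part in the breakdown of hyaluronan (-1.76 ± 0.20), Scx, a transcription factor best known from tendon (-1.64 ± 0.24), and Tuba4a, a tubulin gene (-1.54 ± 0.24), had adjusted p between 0.0002 and 0.00126. Of the 15 falls 12 kept their call in each alternative; Dct, Bcan and Dmrt3 lost it as given above. All 30 genes kept their call whichever single library was left out and after median-ratio rescaling. The 30 were picked as called genes whose libraries did not overlap, so keeping the call follows in part from that choice.

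Genes of endothelium, microglia, red cells, pericytes and meninges, cells that do not arise from radial glia, had few calls. Of 19 endothelial genes 1 rose and 0 fell (4 and 0 after rescaling): Apln, a peptide of growing vessel tips, by 0.53 ± 0.11 (adjusted p = 0.00424). Cldn5 was at 34.8 to 54.2 TPM in the controls and 31.6 to 45.8 TPM in the mutants (adjusted p = 0.247; 0.0331 with the title number as a block), and the list summed to 219 to 257 TPM and 214 to 268 TPM. None of 12 microglial genes and none of 10 red cell genes was called (limma; 0 and 0 also at an unadjusted p under 0.05 and after median-ratio rescaling, and at most 1 gene of each list in any alternative). Of 13 pericyte and meningeal genes 2 fell (1 after rescaling), and mutant library 3 was high in Col1a1 (13.3 TPM against 0.433 to 2.69 TPM in the other libraries). The septal and thalamic list holds neural genes, and 12.5% of it was called higher and 25% lower, against 8.96% and 28.4% of all genes. With 8 of 18 genes above the filter, it had 1 rise, Olig3, and 2 falls, Lhx9 (-1.33 ± 0.33, adjusted p = 0.0126; 0.136 in the male libraries) and Foxp2 (-0.86 ± 0.15, adjusted p = 0.00175). Gbx2, the defining thalamic factor, lay between 0 and 0.612 TPM.

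Whether the medial effect differed from the dorsal one was tested on the within-embryo difference between medial and dorsal libraries (control numbers 2 to 6, mutant numbers 1 to 4). Medial and dorsal libraries of the same number deviated together from their group means in all 9 pairs (r = 0.563 to 0.801 across genes), and they were taken as from one embryo. The labels do not say so, and medial and dorsal libraries of unlike number were not compared. Embryo here thus means a shared genotype and title number. In this test 16 of 13123 genes (0.122%) passed, 7 with the medial change above the dorsal one and 9 below. Ccnd1 rose by 2.79 ± 0.20 medially and 1.41 ± 0.07 dorsally, a difference of 1.39 ± 0.19 (adjusted p = 0.04). That call held in 2 of 11 alternatives, the fit of all 19 libraries and the fit without control 5, and was lost without any other single embryo and with a pseudocount of 0.1. The group means were 17.7 and 123 TPM in medial cortex and 50.1 and 135 TPM in dorsal cortex, so the mutants were alike and the medial controls lower. Sox1 rose by 1.42 medially and 0.72 dorsally (difference 0.67 ± 0.09, adjusted p = 0.0225) and Cdkn1c fell by 1.21 and 0.71 (-0.51 ± 0.07, adjusted p = 0.0237). Cacng5 rose by 3.04 and 2.15 (0.91 ± 0.10, adjusted p = 0.0131), Lypd1, a GPI-anchored modulator of nicotinic receptors, by 1.63 and 0.50 (1.25 ± 0.17, adjusted p = 0.0225), and Alcam fell by 2.0 and 1.38 (-0.64 ± 0.09, adjusted p = 0.0237). Hes1 did not pass in medial cortex (-0.07) and rose in dorsal cortex by 0.35 (adjusted p = 0.0173), a difference of -0.42 ± 0.07 (adjusted p = 0.042). Gli1 (4.74 medially, 4.51 dorsally), Ptch1 (3.45 and 3.18), Fgf15 (5.57 and 5.56), Cdk6 and Olig2 were not among the 16. The calls of Cacng5, Sox1, Lypd1, Alcam, Cdkn1c and Hes1 held in 9, 6, 5, 4, 4 and 1 of 11 alternatives. The count rests on few embryos: without control 2 it was 0, without mutant 3 it was 1, and in a fit of all 19 libraries with no within-embryo term it was 1, which was Ccnd1.

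**Figure D5:**
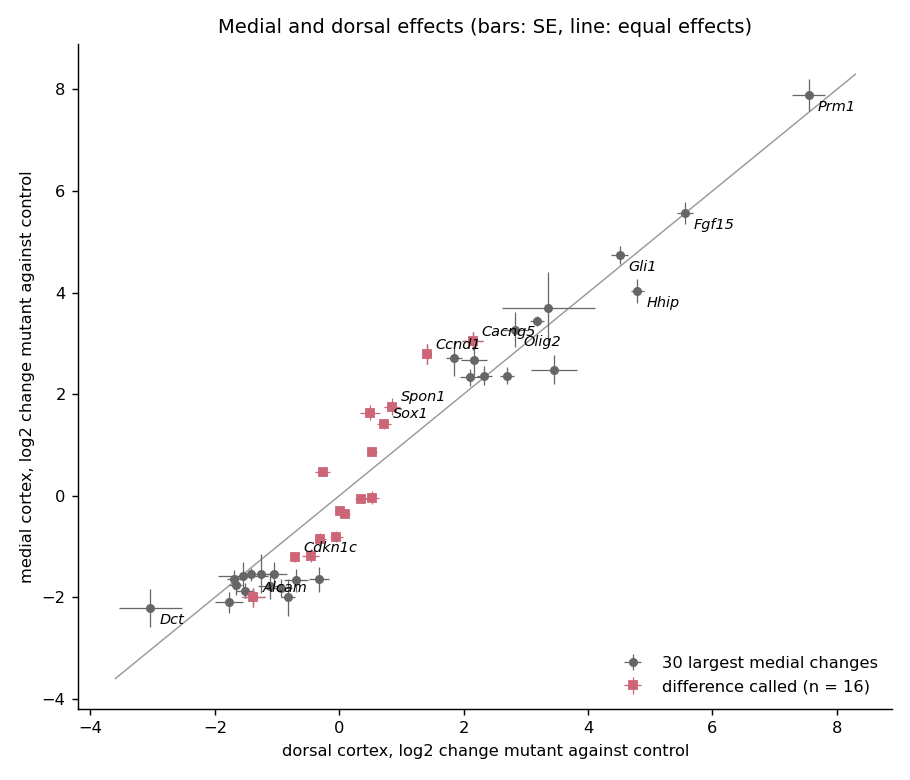
Log2 change with its standard error in medial cortex (vertical) against dorsal cortex (horizontal) for the 30 genes of largest medial change (grey) and the 16 genes whose medial and dorsal changes differed (red squares); the line marks equal changes. Ccnd1, Cacng5, Sox1 and Spon1 lie above the line, Alcam and Cdkn1c below it, and Fgf15 and Gli1 on or near it. The calls of Ccnd1 and Spon1 held in only 2 and 1 of 11 alternatives.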

How the data were processed

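Per the labels' protocols, extraction used the RNeasy Micro kit and library preparation the TruSeq Stranded Total RNA kit. The values are TPM per gene symbol, as deposited by the authors in 1 table of 19 libraries, each summing to 1000000; the build is mm10, per the submitters' processing notes, while for aligner, quantifier and annotation there is no name (not given in the sources used here). No counts were given, so the depth is unknown and no count test was run. Medial libraries were compared with limma 3.58.1 (R 4.3.3, statmod 1.5.0; trend and robust) on log2(TPM + 1), over genes reaching 1 TPM in 4 or more of the 9 libraries, with Benjamini-Hochberg adjustment at 0.05; fold changes on this scale understate those of low genes. The medial minus dorsal difference was fitted on within-embryo differences. Medial and dorsal libraries were paired by title number, after their deviations from the group means correlated in all 9 pairs. The labels do not say that such a pair came from one embryo. Single values over libraries used exact two-sided permutation (SciPy 1.17.1, Python 3.11.15), and figures matplotlib 3.10.9. The fits were tested on simulated data, and 24 alternatives were run. Coordinates are those of GENCODE M21 (GRCm38), which matched 12678 symbols to 1 position, and promoters those of RefSeq (GRCm38.p6).

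Genes were named by rule. The 15 largest changes in each direction were taken among called genes whose libraries did not overlap between the groups. Predicted, clone, mitochondrial, small RNA, ribosomal, pseudogene and sex-linked names were left out there. From each of the 39 lists except the sex-linked one, the 4 genes of lowest adjusted p were added. A fixed set of pathway genes was added too. Other list members and the genes of the regional difference were named after their values were seen. The members and lists were chosen with earlier results of these data known. Some genes that the rule names are not reported here.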

Additional observations from a re-analysis of the deposited data

Results flagged for a closer look

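Single libraries stood apart from the rest of their group in 11 of 96 groups of libraries over 48 named genes; chance alone would mark about 1 in 20. Control library 5 was apart for Ccnd1 (29.6 TPM), Gli3 (34.5 TPM), Sstr1 (3.77 TPM) and Dio3 (0.0585 TPM, the other controls being listed at 0). Control library 3 was apart for Hhip at 0.122 TPM. Mutant library 1 was apart from the other mutants for the hem genes Wnt3a (7.83 TPM), Wnt8b (23.7 TPM) and Lmx1a (11 TPM), and lower than them for Gli2 (4.8 TPM) and Eomes (255 TPM). Mutant library 2 was apart for Dio3 at 11.1 TPM.

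The genotype effect differed between medial and dorsal cortex for 16 genes (medial minus dorsal log2 change, limma, adjusted p under 0.05). The difference was positive for Ccnd1 (1.39), Lypd1 (1.25), Cacng5 (0.909), the matrix protein gene Spon1 (0.885), the prokineticin receptor gene Prokr1 (0.813), Sox1 (0.673) and the pyruvate carboxylase gene Pcx (0.3). It was negative for Mfap4 (-0.814), Adamts9 (-0.759), Alcam (-0.637), Pxylp1 (-0.585), Kcnip3 (-0.558), Cdkn1c (-0.513), Nt5dc2 (-0.494), Hes1 (-0.416) and Gtf2f2 (-0.299). Pxylp1 did not pass in medial cortex (-0.04) and rose in dorsal cortex (0.52), while Mfap4 was at -0.80 medially and -0.05 dorsally. The calls of Prokr1, Pxylp1, Gtf2f2 and Nt5dc2 held in 8, 8, 6 and 4 of 11 alternatives. Those of Spon1, Kcnip3 and Mfap4 held in 1 each, and those of Adamts9 and Pcx in 0.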

How the results depend on the processing

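No called value of a named gene changed direction under any alternative, while the fitted change of 16 named genes that were not called crossed 0 in at least 1. Over all genes, 1 was called in the opposite direction with quantile normalization. Of 4643 values of 195 named genes under the alternatives, 4410 kept their side of the threshold, 192 lost the call and 41 gained it. Scaling moved the split: there were 2087 genes higher and 1921 lower with median-ratio scaling, 1896 and 1924 with quantile normalization, and 2348 lower with histone genes left out. With male libraries alone, 2108 genes passed (606 higher, 1502 lower), 250 of them list members against 388 of 690. Leaving out 1 library gave 3972 to 4900 genes. In libraries low in Wnt3a and Lmx1a, a choice made after seeing the data, 3600 genes passed. The regional difference, 16 genes, was 1 in the fit of all 19 libraries, 9 with a pseudocount of 0.1, and 0 to 13 without 1 embryo. It was 0 without control 2, 1 without mutant 3, 3 without mutant 4, 5 without control 4, 7 without mutant 2 and 10 without control 3. At an unadjusted p under 0.05 it was 1163, against 437 with all 19 libraries and 915 without control 2. The cause was not tested.

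Control and mutant libraries share only numbers: libraries with the same title number correlated at -0.0878, 0.0375 and -0.131, and those with the same description number at 0.37, -0.0193, -0.193 and 0.462. With the title number as a block 3753 genes passed, and with the description number as a block 3786.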
